A study of Mus musculus with 10 samples.

Results

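The interferon-induced GTPases described here are 9 mouse genes: the guanylate-binding protein (GBP) genes Gbp2, Gbp3, Gbp5, Gbp7 and Gbp9, and the immunity-related GTPase (IRG) genes Iigp1, Irgm1, Irgm2 and Igtp. They were taken by symbol from a deposited gene table, where all 9 were found once among 78317 rows and all 9 passed the filter on low values that left 15680 genes for testing. Expression was measured by RNA sequencing in 1-mm punches of medial prefrontal cortex from wild-type mice. The miR-130a-3p group held 5 libraries, numbered 13, 14, 15, 17 and 18, from mice given an adeno-associated virus (AAV) meant to overexpress this microRNA. The control group held 5 libraries, numbered 3, 4, 5, 7 and 9, from mice given a control AAV. The labels used here give no strain, sex, age, dose, promoter, serotype or time after injection, call the cells a mixture, and do not say whether each library is 1 animal. The p-values therefore measure how these libraries vary, which may be in part technical. The design asks which transcripts differ when the microRNA is overexpressed. All values are deposited TPM, a level relative to transcript length and to the library's total, from which the sequencing depth of a library cannot be known.

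GBPs and IRGs are large and small GTPases of cell-autonomous immunity. Most cells hold little of them until an interferon binds its receptor and Janus kinases activate STAT transcription factors, which, with interferon regulatory factors, switch the genes on through short promoter elements. The proteins then bind GTP, assemble on membranes, and in mouse cells coat and break the vacuoles of parasites such as Toxoplasma. Some of them also act in inflammasome signalling and autophagy. In brain they can be induced in microglia, astrocytes, endothelium and neurons, and infiltrating immune cells also express them.

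The promoters are shown because the interferon elements are what these genes are known to share. RefSeq promoter windows (GRCm38.p6, 250 bases before to 50 after each annotated start) were at hand for 7 of the 9 genes, all except Gbp9 and Iigp1. The stretches below read 5′ to 3′ on the gene's strand, and capitals mark each match to GAAANNGAAA or its reverse complement TTTCNNTTTC, the core letters of the interferon-stimulated response element.
Gbp2, chr3:142620579-142620638 (+): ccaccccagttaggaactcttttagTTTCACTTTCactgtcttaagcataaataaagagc
Gbp5, chr3:142496744-142496803 (+): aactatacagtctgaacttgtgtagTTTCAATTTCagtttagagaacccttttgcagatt
Gbp3, chr3:142559974-142560039 (+): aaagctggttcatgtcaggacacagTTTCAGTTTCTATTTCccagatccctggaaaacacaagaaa
Gbp7, chr3:142530258-142530317 (+): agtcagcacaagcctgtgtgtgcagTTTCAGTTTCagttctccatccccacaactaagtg
Irgm1, chr11:48871410-48871475 (-): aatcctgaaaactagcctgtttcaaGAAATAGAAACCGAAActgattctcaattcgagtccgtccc
Irgm2, chr11:58214888-58214947 (+): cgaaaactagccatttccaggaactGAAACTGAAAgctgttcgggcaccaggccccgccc
Igtp, chr11:58199497-58199556 (+): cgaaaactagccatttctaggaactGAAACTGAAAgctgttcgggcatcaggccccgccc

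The response-element letters stood in a window of 7 of the 7 genes, searched on both strands. They stood in a window of 3.99% of all 27025 genes with RefSeq promoter windows of the same length (3.44% of 32851 windows). Gbp3 has 2 annotated starts, and its other window held no match. The first match began between 165 bases (Gbp5) and 30 bases (Irgm1) before the start, and Gbp3 and Irgm1 each held 2 overlapping matches. The gamma-activated site letters TTCNNNGAA are the palindrome known from genes that respond to interferon-gamma. They stood in the windows of 4 of the 7 genes, Gbp5, Gbp7, Irgm2 and Igtp, against 9.55% of all genes with a window (8.3% of windows). In Irgm2 and Igtp, neighbouring genes on chromosome 11, this match lay just before the response-element match without overlap, and the stretches printed for them were identical at 58 of 60 bases. Of 9 other GBP and IRG genes with a window, 5 held the response-element letters and 3 the gamma-activated site letters. Ifi47, Gm5431 and 9930111J21Rik2, called lower below, and Irgq, which did not pass, held neither. A match is a description of letters and shows no binding.

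**Figure D1:**
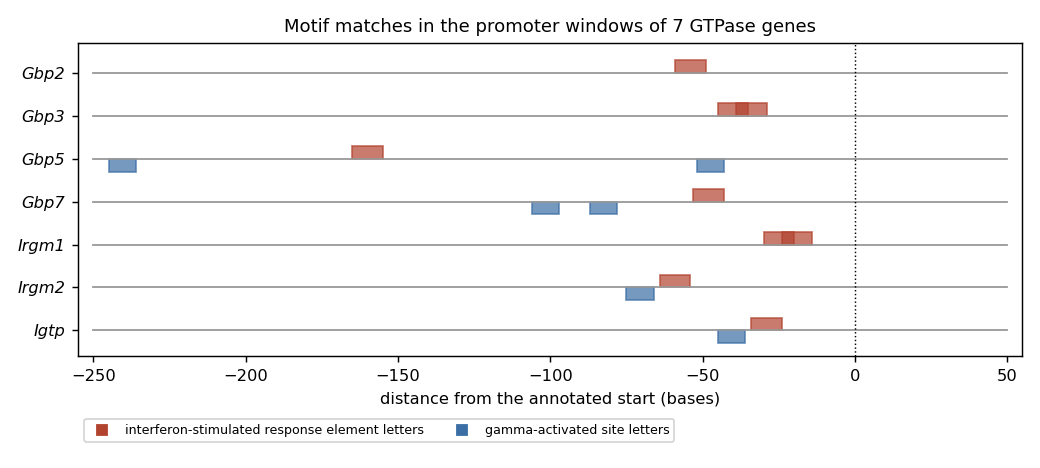
Matches to the letters of the interferon-stimulated response element (above each line) and of the gamma-activated site (below it) in the promoter windows of 7 GTPase genes, by distance in bases from the annotated start (dotted line). Each of the 7 lines carries at least 1 response-element match, and 4 of them a gamma-activated site match; for Gbp3, the window with a match is drawn.

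The GTPase genes were lower in the miR-130a-3p libraries. In limma on log2(TPM + 1), 7 of the 9 fell at an adjusted p under 0.05, while 11.3% of all tested genes were called lower. All 7 fell at least 2-fold on that scale, which 3.21% of tested genes did. For 3 of the 9, every miR-130a-3p library lay below every control library, as for 9.46% of tested genes. The median log2 fold change of the 9 was −1.99, beside −0.09 over all tested genes, and 0 of the 9 were higher. In bulk tissue, fewer cells of a type and less RNA per cell cannot be told apart.

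**Figure D2:**
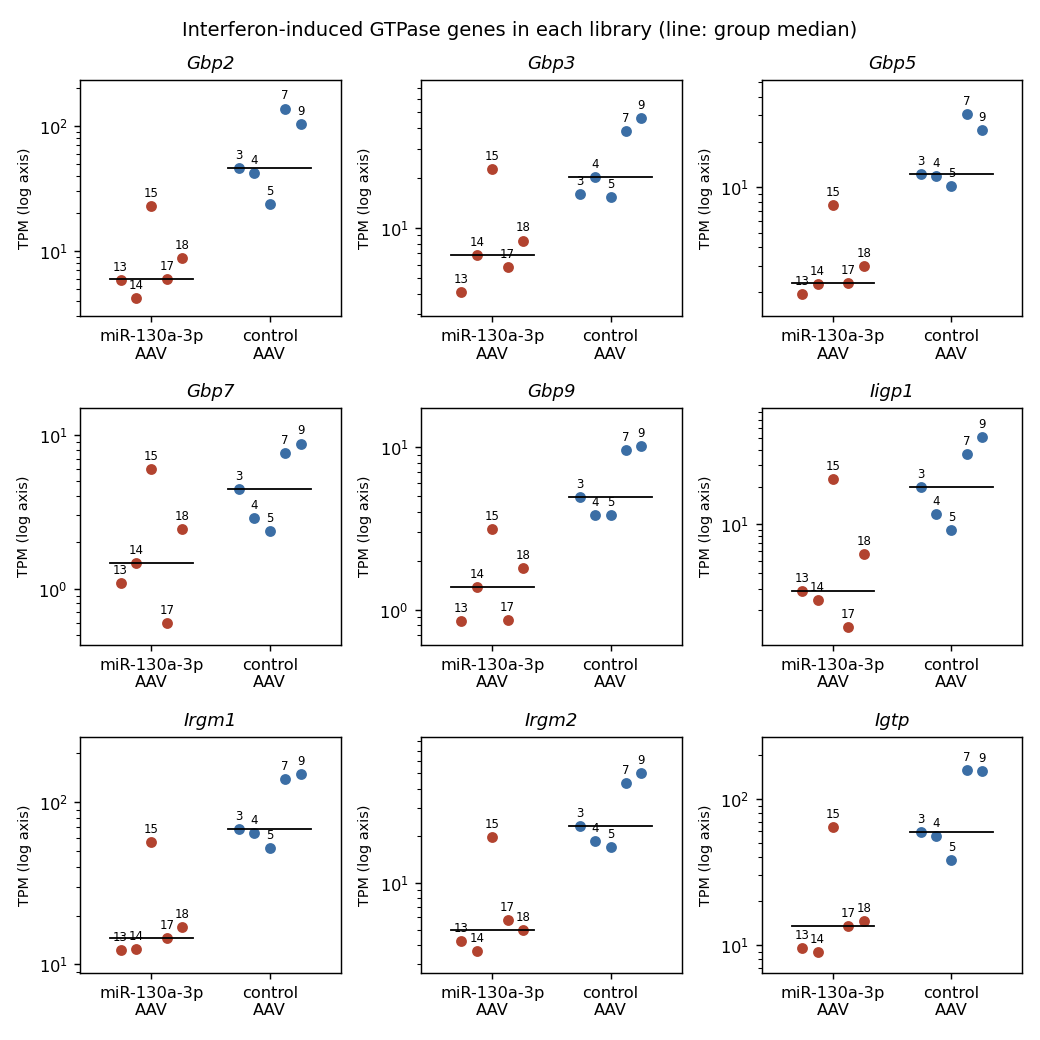
Level of each of the 9 GTPase genes in TPM (log axis) in the 5 miR-130a-3p libraries (red, left) and the 5 control libraries (blue, right), each point labelled with its library number and the line at the group median. Library 15 is the highest red point in all 9 panels, and control libraries 7 and 9 are the 2 highest points of each.

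Gbp2 encodes a prenylated GBP that mouse cells recruit to pathogen vacuoles. It had 5.87, 4.18, 22.97, 6.01 and 8.79 TPM in miR-130a-3p libraries 13, 14, 15, 17 and 18, against 45.78, 41.93, 23.75, 138.25 and 104.69 TPM in control libraries 3, 4, 5, 7 and 9. The groups did not overlap, but the highest miR-130a-3p library (15) came within 1 TPM of the lowest control (5). Gbp2 averaged 9.56 ± 7.67 TPM in the miR-130a-3p group and 70.9 ± 48.4 TPM in the control group (SD, n = 5 each), a mean at 13.5% of that of the controls. Its log2 fold change in limma was −2.72 (SE 0.496, adjusted p = 0.00535), the lowest of the 9.

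Gbp5 is known in mice for a part in assembly of the NLRP3 inflammasome. It had 1.94, 2.26, 7.57, 2.3 and 2.99 TPM in miR-130a-3p libraries 13, 14, 15, 17 and 18, and 12.24, 11.93, 10.15, 30.45 and 23.98 TPM in control libraries 3, 4, 5, 7 and 9. Every miR-130a-3p library lay below every control. The log2 fold change in limma was −2.09 (SE 0.347, adjusted p = 0.00343). The table lists this gene under the biotype of nonsense-mediated decay.

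Gbp3 is a further member of the chromosome 3 cluster. Its values were 4.08, 6.84, 22.75, 5.83 and 8.38 TPM in miR-130a-3p libraries 13, 14, 15, 17 and 18, against 16.02, 20.31, 15.27, 38.35 and 46.07 TPM in control libraries 3, 4, 5, 7 and 9. The groups overlapped through library 15, which lay above controls 3, 4 and 5, while the other 4 miR-130a-3p libraries lay below every control. Gbp3 fell with a log2 fold change of −1.50 (limma, SE 0.413, adjusted p = 0.0340). That call was the least stable of the 7: with 1 library left out it was lost in 7 of 10 cases, without control 4, 7 or 9 or without miR-130a-3p library 13, 14, 17 or 18, with adjusted p between 0.0504 and 0.0873 in limma.

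Gbp7 is linked in mouse macrophages to assembly of the NADPH oxidase. Its level was 1.09, 1.47, 5.99, 0.6 and 2.46 TPM in miR-130a-3p libraries 13, 14, 15, 17 and 18, and 4.48, 2.88, 2.37, 7.64 and 8.85 TPM in control libraries 3, 4, 5, 7 and 9. Library 15 lay above 3 of the controls and library 18 above control 5, so the groups overlapped most plainly here. The log2 fold change of −0.99 (limma, 95% interval −1.88 to −0.10) did not pass, with adjusted p = 0.134. Without library 15 it passed, at −1.31 with adjusted p = 0.0371 in limma.

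Gbp9 lies in the second GBP cluster, on chromosome 5, and was among the weakest. It had 0.85, 1.38, 3.15, 0.87 and 1.81 TPM in miR-130a-3p libraries 13, 14, 15, 17 and 18, against 4.94, 3.83, 3.83, 9.59 and 10.22 TPM in control libraries 3, 4, 5, 7 and 9. The groups did not overlap, and the gap between library 15 and controls 4 and 5 was under 1 TPM. The log2 fold change in limma was −1.48 (SE 0.302, adjusted p = 0.00867), a scale that understates the change of genes this low.

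The IRG genes fall by role into an effector, Iigp1, and 3 regulators. Iigp1, whose product (also called Irga6) is loaded onto the vacuole membrane, had 2.86, 2.42, 23.24, 1.47 and 5.72 TPM in miR-130a-3p libraries 13, 14, 15, 17 and 18, and 19.92, 11.95, 8.86, 36.56 and 50.83 TPM in control libraries 3, 4, 5, 7 and 9. Library 15 lay above controls 3, 4 and 5, and the other 4 miR-130a-3p libraries below every control. Iigp1 averaged 7.14 ± 9.14 TPM in the miR-130a-3p group and 25.6 ± 17.7 TPM in the control group (SD, n = 5 each), with a wider relative spread in the miR-130a-3p group than any other of the 9. Its log2 fold change of −1.99 (limma, SE 0.612) missed the threshold at an adjusted p of 0.0522. It passed when control 5 or miR-130a-3p library 15 was left out, with adjusted p = 0.0436 and 0.00979 in limma.

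The regulators keep the effector IRGs inactive on the cell's own membranes. Irgm1, whose loss in mice impairs control of intracellular bacteria and autophagy, was the most abundant of the 9 by mean level in both groups. It had 12.3, 12.48, 57.04, 14.59 and 16.96 TPM in miR-130a-3p libraries 13, 14, 15, 17 and 18, against 68.31, 64.39, 52.32, 138.53 and 149.23 TPM in control libraries 3, 4, 5, 7 and 9. Library 15 lay above control 5 and below the other controls, and the remaining 4 miR-130a-3p libraries were all under 17 TPM. Irgm1 averaged 22.7 ± 19.3 TPM in the miR-130a-3p group and 94.6 ± 45.6 TPM in the control group (SD, n = 5 each). It fell with a log2 fold change of −2.15 (limma, SE 0.420, adjusted p = 0.00717).

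Irgm2, a Golgi-associated regulator that in mouse macrophages restrains the caspase-11 inflammasome, had 4.25, 3.68, 19.68, 5.79 and 5.01 TPM in miR-130a-3p libraries 13, 14, 15, 17 and 18, and 23.05, 18.41, 16.95, 43.33 and 50.51 TPM in control libraries 3, 4, 5, 7 and 9. Library 15 lay above controls 4 and 5, and the other 4 miR-130a-3p libraries lay well below every control. The log2 fold change in limma was −1.97 (SE 0.417, adjusted p = 0.0103).

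Igtp, also called Irgm3, encodes the regulator of the endoplasmic reticulum and lipid droplets. It had 9.58, 8.99, 64.23, 13.52 and 14.72 TPM in miR-130a-3p libraries 13, 14, 15, 17 and 18, against 59.04, 55.69, 38.36, 156.63 and 156.09 TPM in control libraries 3, 4, 5, 7 and 9. Library 15 lay above controls 3, 4 and 5 and 4.36-fold above the next miR-130a-3p library, the widest such gap among the 9. Igtp fell with a log2 fold change of −2.21 (limma, SE 0.535, adjusted p = 0.0195), and the call was lost without control 7, miR-130a-3p library 13 or miR-130a-3p library 14 (adjusted p between 0.0535 and 0.0578 in limma).

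The order of mean levels had the same top in both groups. In the miR-130a-3p group it ran from Irgm1 (22.7 TPM) and Igtp (22.2 TPM) through Gbp3 (9.58), Gbp2 (9.56), Irgm2 (7.68), Iigp1 (7.14), Gbp5 (3.41) and Gbp7 (2.32) to Gbp9 (1.61 TPM). In the control group it ran from Irgm1 (94.6 TPM) and Igtp (93.2 TPM) through Gbp2 (70.9), Irgm2 (30.5), Gbp3 (27.2), Iigp1 (25.6), Gbp5 (17.8) and Gbp9 (6.48) to Gbp7 (5.24 TPM). Between neighbours in these orders the gap was smaller than the larger of their SDs, except between Gbp5 and Gbp9 in the control group. These SDs hold a spread between libraries that the genes share, so they do not measure how sure the order is. Igtp, for example, lay above both Gbp2 and Gbp3 in every library.

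As shares of the TPM summed over the 9 genes, the members differed among themselves. Gbp2 took 9.57% to 13.7% in the miR-130a-3p libraries and 13.8% to 23.1% in the control libraries. Gbp3 took 9.53% to 15.7% in the miR-130a-3p libraries and 6.31% to 8.89% in the control libraries. The ranges of these shares did not overlap, with Gbp2 the smaller share and Gbp3 the larger in the miR-130a-3p group. Irgm1 took a similar share in both, 25.2% to 28.7% in the miR-130a-3p libraries and 23.1% to 30.4% in the control libraries. The shares are a description, since they add to a fixed sum.

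The same libraries were high or low within their group for nearly all of the 9 genes. Summed over the 9 genes, the level was 42.82, 43.7, 226.62, 50.98 and 66.84 TPM in miR-130a-3p libraries 13, 14, 15, 17 and 18, and 253.78, 231.32, 171.86, 599.33 and 600.47 TPM in control libraries 3, 4, 5, 7 and 9. Library 15 was the highest of its group for 9 of 9 genes, by 1.74-fold (Gbp9) to 4.36-fold (Igtp). Controls 7 and 9 were the 2 highest of the 10 libraries for 9 of 9 genes, and control 5 was the lowest control for 9 of 9, tied with control 4 for Gbp9.

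Leaving those libraries out moved the calls both ways. Without library 15, 9 of the 9 genes were lower and 1 of them, Gbp7, overlapped between the groups, against 6 with all libraries. Without controls 7 and 9, 5 genes were lower: Gbp3 (adjusted p = 0.13) and Igtp (adjusted p = 0.0784) no longer passed in limma. Without all 3 libraries, a setting added after the values were seen, 8 of the 9 were lower, Gbp7 being the exception with adjusted p = 0.0814 in limma. Gbp2, Gbp5, Gbp9, Irgm1 and Irgm2 were lower under every alternative in which they were tested.

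**Figure D3:**
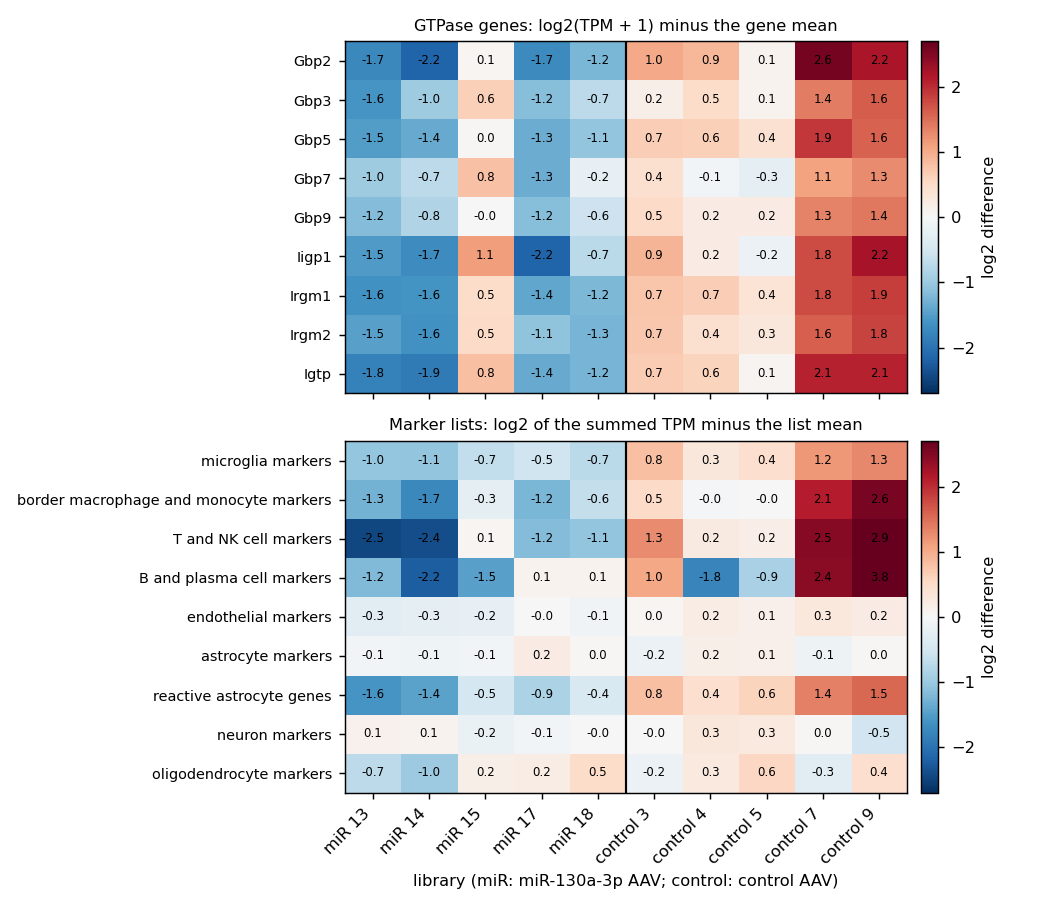
Top, log2(TPM + 1) of each GTPase gene minus its mean over the 10 libraries. Bottom, log2 of the summed TPM of each list of cell type markers minus its mean. Columns are libraries, miR-130a-3p left of the black line and control right of it, and the printed numbers are the log2 differences. Controls 7 and 9 are highest in all 9 GTPase rows. They are also highest in the microglia, border macrophage, T cell, B cell, endothelial and reactive astrocyte rows.

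The genes whose profile over the 10 libraries lay closest to the mean profile of the 9 members, by mean absolute difference of centred log2 values, were Irf1 (0.139), Gbp6 (0.186), Gbp10 (0.195), Ifi47 (0.219), H2-DMb1 (0.222) and Tgtp1 (0.228). The median gene that is no member lay at 1.02 on this measure. Among the members, Irgm1 lay closest to their mean profile (0.128) and Gbp7 farthest (0.457), but each member is part of that mean. Irf1 had 6.18, 5.15, 19.72, 6.42 and 9.04 TPM in miR-130a-3p libraries 13, 14, 15, 17 and 18, and 25.89, 20.17, 16.07, 57.27 and 50.26 TPM in control libraries 3, 4, 5, 7 and 9. Library 15 was the highest of its group and lay above control 5 alone. Irf1 was picked here for its likeness to the members over these same libraries, so a shared pattern follows from the choice.

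The other GBP and IRG genes were lower too. Of 18 listed, 12 were tested, and 9 fell and 0 rose in limma, with a median log2 fold change of −2.06. Gbp6 averaged 6.71 ± 6.66 TPM in the miR-130a-3p group and 32.7 ± 17.9 TPM in the control group (SD, n = 5 each; log2 fold change −2.27, limma adjusted p = 0.00851). The other GBP genes that fell were Gbp10 (−2.27) and Gbp4 (−2.08), and the IRG-type genes Tgtp2 (−2.45), Tgtp1 (−2.22), Ifi47 (−2.15), Gm5431 (−1.30) and 9930111J21Rik2 (−1.04), all on the log2 scale, with adjusted p between 0.00222 and 0.0472 in limma. A row named Gm12250 that the table lists as a long noncoding RNA also fell (−2.04, limma adjusted p = 0.0433). Of these 9, the groups did not overlap for Gm5431.

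Gbp8 (−1.23, adjusted p = 0.0856), Irgc (0.22, adjusted p = 0.688) and Irgq (0.04, adjusted p = 0.889) did not pass in limma. Irgc and Irgq are IRG relatives not known as interferon-induced. Irgq had between 37.48 and 47.38 TPM in the miR-130a-3p libraries and between 27.04 and 48.31 TPM in the control libraries. Without miR-130a-3p library 14, 5 of the 12 were lower, as were 5 of the 12 without controls 7 and 9. Without a filter on low values 5 of the 18 rows then tested were lower. GBP and IRG genes are families of close copies, Tgtp1 with Tgtp2 and Gbp6 with Gbp10 above all, so the split of reads between copies is uncertain.

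Large GTPases of other kinds were compared. Mx1 and Mx2, the dynamin-like antiviral GTPases, fell with log2 fold changes of −1.01 (adjusted p = 0.0165) and −1.0 (adjusted p = 0.0434) in limma. Both are rows that the table marks as loss-of-function coding genes, and both were weak, at 0.862 ± 0.644 and 1.16 ± 1.03 TPM in the miR-130a-3p group and 2.60 ± 0.463 and 3.05 ± 0.988 TPM in the control group (SD, n = 5 each). Mx1 averaged under the filter's 1 TPM in the miR-130a-3p group, so it was tested only through its control values, which left room for a fall alone. Of the very large GTPases, Gvin1 (−0.83, adjusted p = 0.10) and Gvin2 (−0.78, adjusted p = 0.146) did not pass in limma. The count of this list of 4 was 1 in 7 of the 10 cases with 1 library left out (all but control 4, control 9 and miR-130a-3p library 15), and 1 under 3 of the 4 rescalings. It was 0 without controls 7 and 9 and 0 without a filter on low values.

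Of 10 membrane-remodelling GTPases not induced by interferon (atlastins, dynamins, mitofusins and Opa1), 1 fell and 0 rose, with a median log2 fold change of 0.09. That count lies near the share of all tested genes called lower, 11.3%. Dnm2, the widely expressed dynamin of endocytosis, had 16.37 to 22.86 TPM in the miR-130a-3p libraries and 27.69 to 32.85 TPM in the control libraries, without overlap (−0.66, limma adjusted p = 0.00300). The next by p, Atl2 (0.20, adjusted p = 0.275) and Dnm1l (0.28, adjusted p = 0.333), did not pass in limma. Without control 9, and without controls 7 and 9, 2 of this list were called lower. With median-ratio scaling or quantile normalization 1 was lower and 1 higher.

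**Figure D4:**
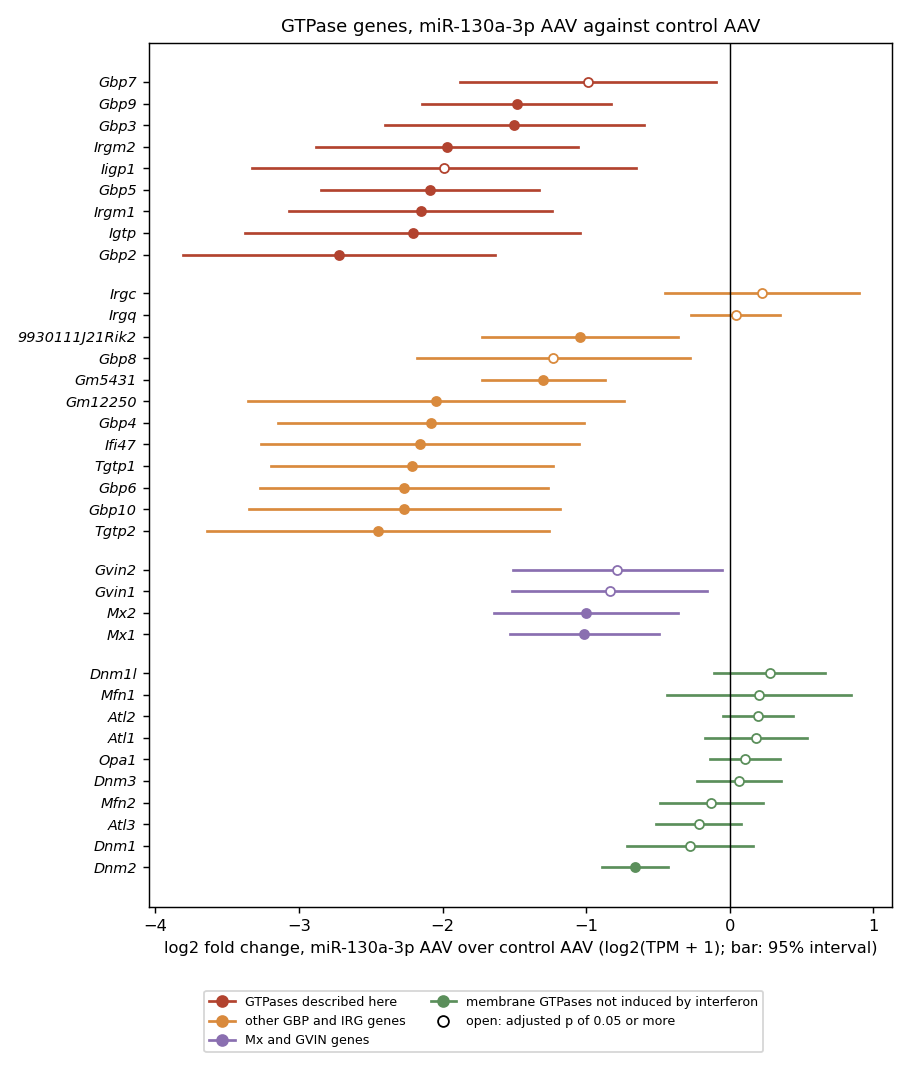
Log2 fold change of miR-130a-3p over control, on the log2(TPM + 1) scale with its 95% interval, for the 9 GTPase genes (red), the other GBP and IRG genes (orange), Mx and GVIN genes (purple) and 10 membrane GTPases not induced by interferon (green). Filled points passed an adjusted p of 0.05; the red points lie between −2.72 and −0.99 and 9 of the 10 green points are open.

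The inducing pathway was examined from ligand to transcription factor. None of the 15 listed interferon genes passed the filter on low values. The highest value of the list was 0.24 TPM in the miR-130a-3p libraries and 1.33 TPM in the control libraries, both of Ifng, the ligand made by T and NK cells. Ifng was listed at 0 in miR-130a-3p libraries 13, 14, 17 and 18 and at 0.24 TPM in library 15, and it had 0.18, 0.18, 0.09, 0.87 and 1.33 TPM in control libraries 3, 4, 5, 7 and 9. Libraries 15, 7 and 9, where the GTPases were highest in their groups, thus also had the highest Ifng values of their groups, at levels too low to test. Ifnb1 was listed at 0 in all 10 libraries.

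Of 8 receptor and kinase genes tested, 5 fell and 0 rose. The type I receptor chain Ifnar2 averaged 17.6 ± 2.25 TPM in the miR-130a-3p group and 32.8 ± 5.60 TPM in the control group (SD, n = 5 each; log2 fold change −0.86, limma adjusted p = 0.00204). The interferon-gamma receptor chain Ifngr1 averaged 15.3 ± 1.68 TPM in the miR-130a-3p group and 26.9 ± 6.42 TPM in the control group (SD, n = 5 each; −0.75, limma adjusted p = 0.00817). Neither overlapped between the groups. Tyk2 (−0.53, adjusted p = 0.0206) and Ifnar1 (−0.38, adjusted p = 0.0370) also fell in limma, as did Il10rb, which was named after its values were seen. Ifngr2 (0.02, adjusted p = 0.925), Jak1 (−0.15, adjusted p = 0.409) and Jak2 (−0.20, adjusted p = 0.330) did not pass in limma. The count of 5 dropped to 3 without control 3, control 7 or miR-130a-3p library 14, with quantile normalization, and without a filter on low values.

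Of 9 interferon-activated transcription factors, 7 fell and 0 rose, with a median log2 fold change of −1.63. Irf9, the DNA-binding subunit of the complex that acts downstream of type I interferon, had 9.29, 8.79, 22.6, 8.82 and 12.75 TPM in miR-130a-3p libraries 13, 14, 15, 17 and 18, against 24.33, 50.11, 38.85, 46.16 and 36.46 TPM in control libraries 3, 4, 5, 7 and 9. The groups did not overlap, and library 15 came closest to the controls. Irf9 fell with a log2 fold change of −1.63 (adjusted p = 0.00283), Irf1 with −1.75 (adjusted p = 0.0140) and Stat2 with −1.09 (adjusted p = 0.00933) in limma. Irf7, Irf8 and Batf2 also fell, and Nlrc5 and Irf2 did not pass; these were named after their values were seen.

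Inhibitors of the pathway fell as well, 4 of 8, with 0 higher. The phosphatase Ptpn6 (−2.12, adjusted p = 0.000927), the interferon-induced inhibitor Usp18 (−1.80, adjusted p = 0.00250) and Socs3 (−1.26, adjusted p = 0.0184) had the lowest p in limma. Socs1 was the fourth, named after its values were seen. Without miR-130a-3p library 13, without a filter on low values, or at a mean of at least 5 TPM, 2 of the list were lower.

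**Figure D5:**
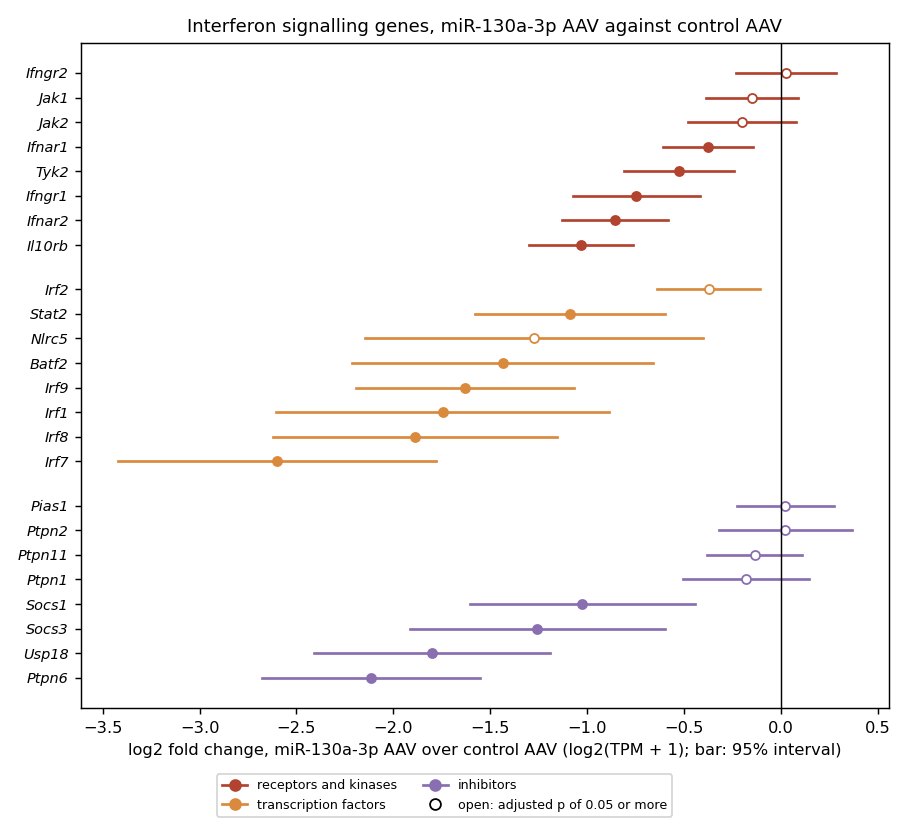
Log2 fold change of miR-130a-3p over control, on the log2(TPM + 1) scale with its 95% interval, for interferon receptors and kinases (red), interferon-activated transcription factors (orange) and inhibitors of the pathway (purple). Filled points passed an adjusted p of 0.05: of those drawn, 5 of 8 red, 6 of 8 orange and 4 of 8 purple.

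Genes known to act with the GTPases differed by group of function. Of 11 autophagy conjugation genes, which direct the proteins to the right membrane, 0 passed in limma, while 3 were lower and 1 higher at an unadjusted p under 0.05. Those with the lowest p were Atg16l1 (−0.37, adjusted p = 0.0870), Atg7 (−0.45, adjusted p = 0.0882) and Gabarapl1 (0.31, adjusted p = 0.0993). Without control 9, and without controls 7 and 9, 2 of these 11 were lower, while 1 was higher with quantile normalization or rescaling without mitochondrial genes. Of 8 prenyl transferase and processing genes, some of which serve the lipid anchor of Gbp2 and Gbp5, 1 fell, beside 11.3% of all tested genes. It was Zmpste24 (−0.69, limma adjusted p = 0.00676), the protease of prenylated proteins such as lamin A. Rabggtb (0.24, adjusted p = 0.171) and Fnta (−0.20, adjusted p = 0.163) did not pass in limma, and without control 9 the count was 2. With median-ratio scaling or quantile normalization 1 of this list was higher.

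Of 8 ubiquitin ligases and adaptors known at GTPase-coated vacuoles, 2 fell and 1 rose. Rnf213, a giant ubiquitin ligase, had 0.92 to 3.72 TPM in the miR-130a-3p libraries and 6.3 to 10.84 TPM in the control libraries (−1.82, limma adjusted p = 0.00158). Trim21 (−1.13, adjusted p = 0.00990) fell and Ube2n, a ubiquitin-conjugating enzyme, rose (0.33, adjusted p = 0.0248) in limma, each without overlap between the groups. The call of Ube2n was lost without control 3, control 7 or miR-130a-3p library 13, 14 or 15. Of 7 inflammasome and pyroptosis genes tested, 4 fell and 0 rose: Casp1 (−1.07, adjusted p = 0.00433), Casp4 (−1.20, adjusted p = 0.00556), Gsdmd (−1.16, adjusted p = 0.00955) and, named after its values were seen, Pycard, in limma.

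As a check of the tissue label, 10 of 10 neuron markers passed the filter on low values, with a summed level of 6811 to 8331 TPM in the miR-130a-3p libraries and 5440 to 9588 TPM in the control libraries, and 0 passed in either direction in limma (0 also at an unadjusted p under 0.05). Without control 9, 1 neuron marker was lower, without controls 7 and 9, 2 were lower, and without miR-130a-3p library 17, 2 were higher. Of 8 oligodendrocyte markers 0 passed, with 2 lower at an unadjusted p under 0.05, and 1 was lower without miR-130a-3p library 18. Of 10 astrocyte markers 1 fell, beside 11.3% of all tested genes, and 0 to 3 with 1 library left out (3 without control 9). Per library, 24130 to 26429 genes lay above 0, 0 pairs of libraries were identical, and mitochondrial genes took 16.0% to 19.9% of TPM in the miR-130a-3p libraries and 13% to 16.4% in the control libraries. Mir130a, the microRNA's own gene, was listed at 0 in all 10 libraries, so the overexpression itself is not measured here.

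Markers of microglia and endothelium and genes of reactive astrocytes were lower in the miR-130a-3p group as well. Of 14 microglia markers, 12 fell and 0 rose, and their summed level was 685 to 987 TPM in the miR-130a-3p libraries and 1779 to 3523 TPM in the control libraries. The lowest p were those of C1qc (−2.0, adjusted p = 0.000609) and Csf1r (−1.39, adjusted p = 0.000873) in limma. Of 9 reactive astrocyte genes tested, 9 fell, Vim, Osmr and Gfap first by p (adjusted p between 0.00154 and 0.00210 in limma), with a summed level of 134 to 303 TPM in the miR-130a-3p libraries and 547 to 1171 TPM in the control libraries. Of 15 endothelial markers, 10 fell, among them Pecam1 (−0.70), Cdh5 (−0.67) and Abcb1a (−0.58), with a summed level of 366 to 449 TPM in the miR-130a-3p libraries and 464 to 546 TPM in the control libraries. The endothelial count was 5 with median-ratio scaling, 3 with quantile normalization, 5 without miR-130a-3p library 13, and 6 without a filter, without control 7 or without miR-130a-3p library 14 or 15.

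Markers of lymphocytes, monocytes and border macrophages spread widely between libraries. Of 10 T and NK cell markers tested, 8 fell, Nkg7, Cd8b1 and Gzmb among them. The 12 listed markers summed to 3.42 to 19.4 TPM in the miR-130a-3p libraries and 21.4 to 138 TPM in the control libraries. No marker of this list exceeded 3.98 TPM in a miR-130a-3p library. The filter took the mean over all 10 libraries, so a marker near 0 in the miR-130a-3p group could pass through the control group alone. Such a marker could then only be lower, so these counts lean to falls. Gzmb was listed at 0 in miR-130a-3p libraries 13, 14 and 18, Klrb1c in 13 and 14, and Ncr1 in 13, 15, 17 and 18 and in control 5. Of 6 border macrophage and monocyte markers tested, 3 fell (Ly6c2, Plac8 and Ms4a7) and 3 did not pass. Log2 fold changes of these 6 lay between −2.91 and 0.43. The list summed to 9.83 to 27.5 TPM in the miR-130a-3p libraries and 31.8 to 193 TPM in the control libraries. Of 4 B and plasma cell markers tested, 1 fell (Cd79b), the list summed to 7.08 to 35.6 TPM in the miR-130a-3p libraries and 9.68 to 471 TPM in the control libraries, and Ms4a1 was at 0 in miR-130a-3p library 14. These counts moved with single libraries and settings: without miR-130a-3p library 14 the T and NK cell count was 3 and without control 7 or miR-130a-3p library 13 it was 5, and the border macrophage count was 1 without any of these 3 libraries in turn. Without a filter on low values the T and NK cell count was 2 of 12 and the border macrophage count 1 of 9. The B and plasma cell count was 0 without control 3, control 7 or miR-130a-3p library 13, 14 or 15, without a filter, and with median-ratio scaling or quantile normalization, and it was 2 without control 4.

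Library 15 did not stand out alike in these lists. It was the highest miR-130a-3p library for the T and NK cell list (19.4 TPM) and the border macrophage list (27.5 TPM), but for microglia markers it had 898 TPM, below the 987 TPM of library 17. Summed over the 9 GTPases, the level relative to the microglia markers was 0.252 in library 15 and 0.0517 to 0.0777 in the other miR-130a-3p libraries, against 0.0881 to 0.187 in the control libraries. Relative to the T and NK cell markers it was 6.13 to 12.5 in the miR-130a-3p libraries and 4.35 to 10.4 in the control libraries. Those ranges overlap. Relative to endothelial markers it was 0.113 to 0.590 in the miR-130a-3p libraries and 0.347 to 1.14 in the control libraries. In the same order of groups, the ranges were 0.0228 to 0.124 and 0.0811 to 0.340 for astrocyte markers. For neuron markers they were 0.00514 to 0.0333 and 0.0186 to 0.110. With microglia, endothelial, astrocyte and neuron markers the ranges overlapped too, there through library 15 alone. The other miR-130a-3p libraries lay below every control in those ratios. The part of any of these cell types in the lower GTPase levels was not tested.

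The transcripts were searched for sites of the overexpressed microRNA. Its mature sequence in RefSeq (GRCm38.p6, chr2:84741116-84741137, minus strand) is given with the seed, bases 2 to 8, in capitals, beside the single seed site found among the 9 genes, also in capitals.
miR-130a-3p: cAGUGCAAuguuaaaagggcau
Gbp7 site: ctgcacaggtcTGCACTAgttggggttcta

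The letters TTGCACT, which pair with the whole seed, were in the longest annotated 3′ untranslated region (GENCODE M21, GRCm38) of 0 of the 9 genes, against 11.9% of 13267 tested genes. The letters TGCACTA, which pair with seed bases 2 to 7 and have an A opposite base 1, were in 1 of the 9, Gbp7, against 7.44% of those genes; either site was present in 16% of them. Gbp7 has the longest of the 9 regions, 3575 bases, and was 1 of the 2 genes that did not pass the test. These letters say nothing of other kinds of site.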

How the data were processed

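RNA from mouse medial prefrontal cortex was sequenced as poly(A)-selected stranded libraries, per the labels' protocols (RNA integrity number of at least 6.5). The authors deposited TPM values per gene, rounded to 2 decimals; the submitters' processing notes name GRCm39 and, without versions or roles, the tools RSEM, HISAT2, fastp and DESeq2. TPM values sum to the same total in every library, so abundant genes can shift all others, and no counting interval was computed.

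Values were analysed as log2(TPM + 1) for the 15680 genes with a mean of at least 1 TPM, with limma 3.58.1 (lmFit, eBayes with trend) in R 4.3.3, 5 against 5 libraries, 2-sided, Benjamini-Hochberg over all genes tested, threshold 0.05, after a test on simulated data. Fold changes on this scale understate those of weak genes. The filter mean is over all 10 libraries, so a weak gene can pass it through 1 group alone. The labels give no batch, and library numbers run in separate blocks, so anything that followed them cannot be told apart from the group. Alternatives were pseudocounts of 0.1 and 0.5 TPM, no filter, a mean of at least 5 TPM, 4 rescalings, robust moderation and leaving out libraries. Members and lists were chosen with earlier results of these data known; lists are described by counts and medians with no test of their own. Genes were named by rule: all members, all tested GTPase relatives, 11 pathway genes, the 3 lowest p of other lists and the 6 closest profiles. Some genes that this rule selects are left out of the text. Promoters and the microRNA came from RefSeq tables, untranslated regions from GENCODE M21, both GRCm38; Python 3.11.15, numpy 2.4.6, pandas 2.3.3 and matplotlib 3.10.9 were used.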

Additional observations from a re-analysis of the deposited data

Results flagged for a closer look

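Within the miR-130a-3p group, library 15 lay apart from the other 4 by Dixon's criterion, its gap to the next library exceeding 0.71 of the group's range, for 7 of the 9 GTPases: Gbp2 (22.97 TPM), Gbp3 (22.75), Gbp5 (7.57), Iigp1 (23.24), Irgm1 (57.04), Irgm2 (19.68) and Igtp (64.23 TPM). Gbp7 and Gbp9 were highest there too, without reaching it. The same library stood apart for Gbp6 (18.53 TPM), Gbp8 (1.73), Gbp10 (5.59), Ifi47 (12.48), Tgtp1 (8.52), Tgtp2 (20.64), Gm12250 (8.88), Gvin2 (3.47) and Irf1 (19.72 TPM). Chance gives such a gap in about 1 in 20 groups of normally distributed values. The gaps were taken on TPM without a log scale, so that rate need not hold here. Genes of 1 library are not independent, so these genes count as a single pattern. Irf1 was also among the genes picked for a profile like that of the members. Irgq was apart in library 17 instead, at 47.38 TPM.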

How the results depend on the processing

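Of the 9 GTPases, 5 to 9 were lower under all alternatives and 0 turned higher: 8 with pseudocounts of 0.1 and 0.5 TPM, 5 without a filter, 7 of the 7 still tested at a mean of at least 5 TPM, 6 with median-ratio scaling, quantile normalization or robust moderation, and 5 to 9 with 1 library left out. Gbp3 lost its call in 12 of 21 alternatives (adjusted p up to 0.13 in limma) and Igtp in 5 (up to 0.0784), while Iigp1 gained one in 6 and Gbp7 in 1. Genes of the 11 lists around the GTPases called lower numbered 35 of 85 tested, against 23 without a filter and 22 at a mean of at least 5 TPM, where fewer were tested, and 25 to 38 with 1 library left out. GTPases overlapping between the groups numbered 6, and 1 to 6 with 1 library left out; 1 was left without controls 7 and 9 and miR-130a-3p library 15. Over all genes, 1767 were lower and 343 higher, of which calls 16.3% were higher; with median-ratio scaling 1192 were lower and 862 higher (42.0%), and with quantile normalization 1046 and 1071 (50.6%). These scalings moved the median of all genes to 0.01 and 0.05, against −0.09; the causes were not tested. Without a filter 1124 were lower and 178 higher; lower calls numbered 1108 without control 7, 1158 without miR-130a-3p library 13, 1117 without library 14 and 2922 without control 9. No paired analysis was possible because the groups share no replicate numbers. Depth is unknown, and Gbp7 and Gbp9, with means under 5 TPM, were not tested at that filter.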

Other observations

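Genes next to the GTPases in the genome were examined, since the family lies in clusters. The 20 protein-coding neighbours tested were the nearest 2 on each side of each cluster or gene. In the miR-130a-3p group, 2 of them were lower and 1 higher in limma, and 17 did not pass. Of all tested genes 11.3% were called lower, a share near that of these neighbours. Gm12185, beside Irgm1 on chromosome 11, had a log2 fold change of −1.64 (limma adjusted p = 0.0145), close to those of the GTPases. It was counted as a neighbour because it stood on neither list of GBP and IRG genes used here. Whether Gm12185 belongs to the IRG family was not checked. Smim3, beside Iigp1, fell with −0.66 (limma adjusted p = 0.00716) and Trim41, beside Irgm1, rose with 0.62 (limma adjusted p = 0.0275). On chromosome 5, Lrrc8b (0.21, adjusted p = 0.304) and Lrrc8c (−0.06, adjusted p = 0.756), near Gbp9, did not pass in limma, nor did Gtf2b (0.12, adjusted p = 0.478) and Kyat3 (−0.41, adjusted p = 0.122) near Gbp2. These genes were named after their values were seen.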
